A study of Mus musculus with 8 samples.

Results

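The transcripts of 10 cytosolic and mitochondrial heat shock chaperones were followed in mouse liver: Hspa1a, Hspa1b, Hspa8, Hsph1, Dnajb1, Hsp90aa1, Hsp90ab1, Hspb1, Hspd1 and Hspe1. They were chosen by symbol from a deposited table of 13703 rows, in which all 10 were found. Of these, 9 were among the 11077 rows whose mean reached 0.5 FPKM (fragments scaled by gene length and by library total) and were tested, while Hspa1a fell below that limit. Bulk RNA sequencing covered 4 livers labelled Alb-Cre Bicd2fl/fl and 4 labelled Alb-WT Bicd2fl/fl. In both groups Bicd2, which encodes an adaptor between the motor dynein and its cargo, was flanked by loxP sites. The Alb-Cre mice also carried a Cre recombinase under the albumin promoter, which is active in hepatocytes. Which other liver cells kept the gene cannot be read from bulk RNA. All mice went through the S-100 model of autoimmune hepatitis: a soluble liver antigen preparation in complete Freund's adjuvant was injected intraperitoneally 3 times, once a week, at 2.5 mg, and the liver was collected 2 weeks after the final dose. No untreated liver was analysed here, and the sources used here do not give age, sex or strain background. The labels do not say that the libraries came from separate animals, so the spread behind each p-value may be partly or wholly technical.

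Heat shock proteins bind unfolded or partly folded proteins. In the cytosol HSP70 proteins work in ATP-driven cycles with J-domain partners and with HSP110 proteins, which exchange their nucleotide, and HSP90 acts later on kinases, steroid receptors and other clients. In the mitochondrial matrix the chaperonin HSP60 and its lid HSP10 enclose imported proteins while they fold. Heat shock factor 1 induces many of these genes when unfolded protein builds up in the cytosol, whereas the chaperones of the endoplasmic reticulum (ER) answer to a separate set of sensors, the unfolded protein response.

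The targeted gene checked the labels. Bicd2 was at 0.705, 0.568, 0.509 and 0.732 FPKM in Alb-Cre and at 2.46, 3.02, 2.8 and 3.11 FPKM in Alb-WT livers, with no overlap (limma log2 fold change -1.24, SE 0.082, adjusted p = 7.3e-05; exact two-sided permutation p = 0.0286, the smallest that 70 assignments allow). Between 30980790 and 37101744 fragments per library were recovered for the listed genes. Alb-Cre replicate 4 stood apart: across genes its log2 values correlated at 0.958 to 0.96 with the other Alb-Cre libraries and at 0.974 to 0.977 with the Alb-WT libraries, against 0.995 to 0.996 within either of the remaining sets. The summed level of 10 Kupffer cell markers was 261 to 273 FPKM in Alb-Cre replicates 1 to 3. It was 753 FPKM in replicate 4 and 790 to 838 FPKM in Alb-WT. In replicate 4 their median log2 departure from the Alb-WT mean was -0.43, with 6 of the 10 below every Alb-WT library and 1 above. The sum of 9 hepatocyte markers was 45000 to 46600, 36800 and 43500 to 44600 FPKM in the same 3 sets. Alb alone made up 19600 of the 36800 FPKM. The median departure of the 9 was -0.14, -0.1 and -0.11 in Alb-Cre replicates 1 to 3. In replicate 4 it was -0.21, with 8 of the 9 below every Alb-WT library and 1 above. Every tested member is therefore given with and without that library. In bulk RNA, fewer cells of a type and less RNA per cell cannot be told apart.

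The chaperones did not move as a block. With all 8 libraries, 3 of the 9 tested members were higher in Alb-Cre livers (Hsp90aa1, Hspd1 and Hspe1), 1 was lower (Hspa1b) and 5 did not pass (Hspa8, Hsph1, Dnajb1, Hsp90ab1 and Hspb1; limma, adjusted p under 0.05 over all rows tested). In the same fit 8.48% of all rows were called higher and 23.3% lower. Without Alb-Cre replicate 4, 7 members were higher, with Hspa8, Hsp90ab1, Hsph1 and Hspb1 added, and Hspa1b was again the 1 lower member, where 15.2% of all rows were higher and 46.1% lower. The values of both groups did not overlap for Hspd1 and Hspe1, which were higher in Alb-Cre, and for Hspa1b, which was lower. Such separation was seen for 9.27% of all rows in the higher and 21.4% in the lower direction. The median log2 fold change of the 9 tested members was 0.48, against -0.13 for all rows tested, so that a change relative to the median gene is 0.13 higher than the values given. Of all called rows 73.3% were lower, a share of 82.9% with a common FPKM sum, 44.7% with median-of-ratios scaling and 49.3% with quantile normalization, and the same 4 members were called in the same directions under each scaling.

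**Figure D1:**
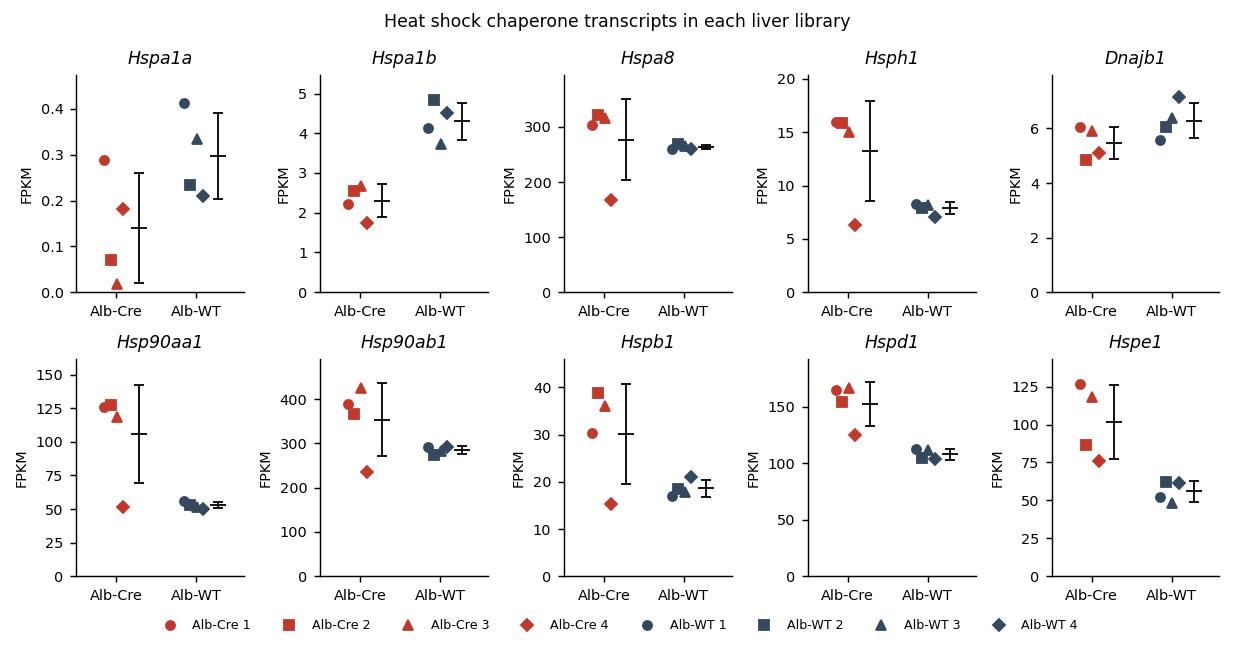
Level of each of the 10 chaperone transcripts in FPKM (vertical axes, each starting at 0) in the 4 Alb-Cre and 4 Alb-WT libraries. Each symbol is a library, with its shape giving the replicate number, and the bars give the mean and SD of each group. For Hspa8, Hsph1, Hsp90aa1, Hsp90ab1 and Hspb1 the diamond of Alb-Cre replicate 4 lies apart from the other 3 Alb-Cre symbols and near or below the Alb-WT libraries.

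Since FPKM is scaled to gene length, the levels of the members can be set beside each other. In Alb-Cre livers Hsp90ab1 (354 ± 83 FPKM) and Hspa8 (277 ± 73.1) led, followed by Hspd1 (152 ± 19.3), Hsp90aa1 (106 ± 36.6), Hspe1 (102 ± 24.5), Hspb1 (30.1 ± 10.5), Hsph1 (13.3 ± 4.69), Dnajb1 (5.47 ± 0.599), Hspa1b (2.3 ± 0.416) and Hspa1a (0.139 ± 0.12; all SD, n = 4). In Alb-WT livers the order was Hsp90ab1 (285 ± 8.35 FPKM), Hspa8 (264 ± 4.31), Hspd1 (108 ± 4.84), Hspe1 (56 ± 6.9), Hsp90aa1 (52.8 ± 2.31), Hspb1 (18.6 ± 1.75), Hsph1 (7.86 ± 0.56), Dnajb1 (6.29 ± 0.654), Hspa1b (4.3 ± 0.474) and Hspa1a (0.297 ± 0.0936; SD, n = 4). The neighbours Hspe1 and Hsp90aa1, and Hsph1 and Dnajb1, overlapped in Alb-WT livers. In Alb-Cre livers the overlapping neighbours were Hsp90ab1 and Hspa8, Hspd1 and Hsp90aa1, Hsp90aa1 and Hspe1, and Hspb1 and Hsph1.

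Hspd1 encodes HSP60, the ring of the mitochondrial chaperonin, and Hspe1 encodes HSP10, its lid. The genes lie head to head on chromosome 1 and are transcribed away from a common promoter. The RefSeq window of Hspe1 (250 bases before to 50 after the start site; GRCm38.p6, chr1:55087898-55088197, plus strand) shares 285 bases with the second Hspd1 window (chr1:55087883-55088182, minus strand). It is shown because both genes were higher in Alb-Cre livers and because it holds letters of the heat shock element, the motif of heat shock factor. Binding of the factor was not tested. Capitals mark GAANNTTC or TTCNNGAA, the core of the element, each its own reverse complement and therefore read on both strands, and here 3 overlapping matches start 89, 84 and 79 bases before the start site.
Hspe1: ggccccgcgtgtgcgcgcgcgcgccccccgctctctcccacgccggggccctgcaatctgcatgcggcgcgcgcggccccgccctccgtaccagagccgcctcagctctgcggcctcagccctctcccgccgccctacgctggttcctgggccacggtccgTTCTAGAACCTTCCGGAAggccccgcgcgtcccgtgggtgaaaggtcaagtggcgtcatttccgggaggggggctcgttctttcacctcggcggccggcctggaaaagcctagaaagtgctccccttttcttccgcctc

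Hspd1 was at 164.8, 153.9, 166.1 and 124.7 FPKM in Alb-Cre replicates 1 to 4 and at 112.6, 104.2, 111.8 and 103.4 FPKM in Alb-WT replicates 1 to 4. Every Alb-Cre library lay above every Alb-WT library, with replicate 4 the lowest of its group. The ratio of the means was 1.41 and the difference passed the test (limma log2 fold change 0.48, SE 0.098, adjusted p = 0.00932), as it did without Alb-Cre replicate 4 (0.58, SE 0.05, adjusted p = 4.36e-06).

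Hspe1 was at 126.5, 86.18, 118.1 and 75.75 FPKM in Alb-Cre livers and at 52.46, 62.32, 48.09 and 61.26 FPKM in Alb-WT livers. Again the groups did not overlap, although Alb-Cre replicates 2 and 4 were nearer to Alb-WT than replicates 1 and 3. The means differed 1.81-fold (limma log2 fold change 0.82, SE 0.17, adjusted p = 0.00984; without Alb-Cre replicate 4, 0.95, SE 0.13, adjusted p = 0.000117). Libraries also differed in how levels ran with gene length: the Spearman correlation across genes of a library's departure with length was -0.21, -0.12, -0.25 and -0.07 in Alb-Cre and 0.25, 0.15, 0.27 and 0.07 in Alb-WT libraries. Hspe1, at 1474 bases of exon, is a short gene, and replicates 1 and 3 are the extremes of both groups in both respects. After removing a length trend in each library, Hspe1 kept a log2 fold change of 0.76 (limma adjusted p = 0.0126) and Hspd1 of 0.53 (adjusted p = 0.0158). The log2 ratio of Hspe1 to Hspd1 within a library was -0.38, -0.84, -0.49 and -0.72 in Alb-Cre and -1.10, -0.74, -1.22 and -0.76 in Alb-WT, and this difference of 0.35 did not pass (exact two-sided permutation p = 0.114, adjusted p = 0.13 over 8 ratios).

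Other mitochondrial chaperones and proteases went in both directions. Hspa9, the matrix HSP70, was at 108, 106, 107 and 103 FPKM in Alb-Cre and 96.5, 89.9, 93.7 and 95.1 FPKM in Alb-WT libraries (log2 fold change 0.17, SE 0.056, limma adjusted p = 0.0456), and the call was lost under 10 of 17 alternatives. Trap1, the matrix HSP90, did not pass (log2 fold change 0.10, SE 0.054, limma adjusted p = 0.167). Of 17 other mitochondrial chaperones and proteases, all tested, 4 were higher: Hspa9, the nucleotide exchange factor Grpel1 (0.38), and the import motor J-proteins Dnajc15 (0.25) and Dnajc19 (0.53; log2 fold changes). Lower were Grpel2 (-0.24) and the protease subunit Clpx (-0.47). The median of the list was 0.10, with 6 genes passing as higher and 4 as lower once Alb-Cre replicate 4 was left out, and the call for Grpel2 was lost under 8 of 17 alternatives. Here and in the lists that follow, called genes beyond the one with the smallest p in each direction were named after their values were seen. The counts of all these lists are to be read beside 8.48% of all rows called higher and 23.3% lower. Without Alb-Cre replicate 4 these shares were 15.2% and 46.1%.

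Cytosolic HSP90 has 2 forms, the inducible Hsp90aa1 and the constitutive Hsp90ab1. Hsp90aa1 was at 126.3, 127.8, 118.6 and 51.47 FPKM in Alb-Cre and at 55.76, 53.31, 51.91 and 50.32 FPKM in Alb-WT libraries. Alb-Cre replicates 1 to 3 lay far above all Alb-WT libraries, and replicate 4 lay among them. With all libraries the means differed 2.01-fold (limma log2 fold change 0.90, SE 0.26, adjusted p = 0.0321). Without Alb-Cre replicate 4 the log2 fold change was 1.22 (SE 0.05, adjusted p = 1.92e-08), whereas leaving out any of the other 7 libraries ended the call, with limma adjusted p up to 0.0876.

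Hsp90ab1 was at 388.6, 365.8, 426.4 and 235.4 FPKM in Alb-Cre and at 291.6, 273.7, 283.5 and 291.0 FPKM in Alb-WT libraries. Replicates 1 to 3 were above and replicate 4 was below every Alb-WT library. The difference did not pass with all libraries (limma log2 fold change 0.28, SE 0.17, adjusted p = 0.217) and did without replicate 4 (0.46, SE 0.055, adjusted p = 4.43e-05). The log2 ratio of Hsp90aa1 to Hsp90ab1 was -1.62, -1.52, -1.85 and -2.19 in Alb-Cre and -2.39, -2.36, -2.45 and -2.53 in Alb-WT libraries. All 4 Alb-Cre ratios lay above all Alb-WT ratios (difference 0.64, exact two-sided permutation p = 0.0286, adjusted p = 0.0381 over 8 ratios). In Alb-Cre replicates 1 to 3 the inducible form was the more shifted of the pair. Its log2 departures from the Alb-WT mean were 1.24, 1.26 and 1.15, against 0.45, 0.36 and 0.58 for Hsp90ab1. In replicate 4 they were -0.04 for Hsp90aa1 and -0.27 for Hsp90ab1, so there the ratio was higher because the constitutive form was lower. Without any 1 of the Alb-WT libraries that p was 0.0571, with a difference of 0.60 to 0.66.

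Among 17 HSP90 co-chaperones 4 were higher and 1 was lower, with a median log2 fold change of 0.06. Higher were Stip1, which bridges HSP70 and HSP90 (0.47), Ahsa1, the activator of the HSP90 ATPase (0.41), and the immunophilins Fkbp8 (0.28) and Ppid (0.23), and lower was the phosphatase Ppp5c (-0.37). The call was lost for Fkbp8 under 7 and for Ppp5c under 1 of 17 alternatives. For Stip1, Ahsa1 and Ppid the calls were not followed through these alternatives, so their stability is not known. Stip1 was at 55.1, 58.5, 63.3 and 40.2 FPKM in Alb-Cre and at 37.8, 36.6, 40.4 and 38.3 FPKM in Alb-WT libraries. Fkbp4, the steroid receptor immunophilin, was at 81, 75.4, 87 and 37.8 FPKM in Alb-Cre and at 48.6, 44.6, 48.5 and 49.5 FPKM in Alb-WT libraries, and did not pass with all 8 (limma adjusted p = 0.135). Ahsa1 was at 23.9, 23.6, 23.9 and 16.5 FPKM in Alb-Cre and at 16.0, 15.7, 15.7 and 17.0 FPKM in Alb-WT libraries. In replicate 4 Stip1 and Ahsa1 lay within and Fkbp4 below the Alb-WT range. Without that library 7 co-chaperones were higher and 3 lower.

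**Figure D2:**
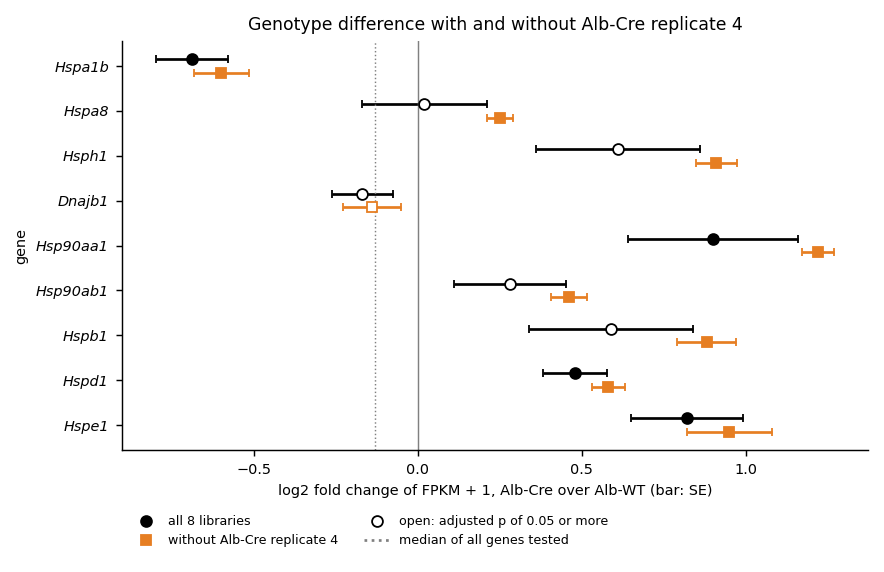
Log2 fold change of FPKM + 1, Alb-Cre over Alb-WT (horizontal axis), for the 9 tested members, with SE as bars. Circles use all 8 libraries and squares leave out Alb-Cre replicate 4, filled symbols have an adjusted p under 0.05, and the dotted line is the median of all genes tested. Hsp90aa1 lies at 0.90 with all libraries and at 1.22 without that library, whose removal brings Hspa8, Hsph1, Hsp90ab1 and Hspb1 past the test, while Hspa1b stays on the lower side.

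The cytosolic HSP70 family split. Hspa1a and Hspa1b encode the same stress-inducible HSP70, lie near each other on chromosome 17 and share much of their sequence: 49.9% of the 100-base stretches of Hspa1b transcripts also occur in Hspa1a in the GENCODE M21 transcripts. How fragments were split between them cannot be read from the table, so their rows are uncertain and their sum is given too. The Hspa1b promoter window (RefSeq, GRCm38.p6, chr17:34959189-34959488, minus strand) is shown because this inducible gene fell in Alb-Cre livers. It holds 1 core match, in capitals, starting 104 bases before the start site. The Hspa1a window differs from it at 4 positions and holds a match at the same place.
Hspa1b: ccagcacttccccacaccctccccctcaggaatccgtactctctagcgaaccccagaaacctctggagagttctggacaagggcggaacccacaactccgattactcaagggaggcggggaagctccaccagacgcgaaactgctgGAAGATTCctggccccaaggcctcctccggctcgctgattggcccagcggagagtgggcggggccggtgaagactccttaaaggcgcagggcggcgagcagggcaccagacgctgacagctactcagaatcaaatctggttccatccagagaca

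Hspa1b was at 2.208, 2.558, 2.674 and 1.749 FPKM in Alb-Cre and at 4.128, 4.826, 3.731 and 4.506 FPKM in Alb-WT libraries, resting on 192 to 268 and 348 to 526 fragments. No library of either group overlapped the other, and replicate 4 was the lowest of the Alb-Cre libraries. The mean in Alb-Cre was 0.535 times that in Alb-WT (limma log2 fold change -0.69, SE 0.11, adjusted p = 0.00354; without Alb-Cre replicate 4, -0.60, SE 0.084, adjusted p = 0.000145). Hspa1a was barely detected, at 0.288, 0.0705, 0.0189 and 0.181 FPKM in Alb-Cre and at 0.412, 0.234, 0.334 and 0.209 FPKM in Alb-WT libraries, or 2 to 28 and 23 to 41 fragments. Its groups overlapped and the difference was not detectable at this depth (exact two-sided permutation p = 0.114). The sum of both genes was 2.5, 2.63, 2.69 and 1.93 FPKM in Alb-Cre and 4.54, 5.06, 4.06 and 4.72 FPKM in Alb-WT libraries, again without overlap (log2 difference -0.71, exact two-sided permutation p = 0.0286, the smallest possible).

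Hspa8 encodes HSC70, the constitutive cytosolic HSP70. It was at 302.7, 321.7, 315.3 and 167.8 FPKM in Alb-Cre and at 259.6, 269.0, 265.4 and 260.8 FPKM in Alb-WT libraries. Replicates 1 to 3 lay above and replicate 4 well below all Alb-WT libraries. The difference over all libraries was 0.02 (SE 0.19, limma adjusted p = 0.935), and 0.25 without replicate 4 (SE 0.04, adjusted p = 0.000394). The inducible form was lower relative to the constitutive one in every Alb-Cre library: the log2 ratio of Hspa1b to Hspa8 was -7.10, -6.97, -6.88 and -6.58 in Alb-Cre and -5.98, -5.80, -6.15 and -5.85 in Alb-WT libraries (difference -0.94, exact two-sided permutation p = 0.0286, adjusted p = 0.0381). In the HSP70 pair the inducible form was thus lower relative to its constitutive partner, and in the HSP90 pair it was higher. For the HSP90 pair in Alb-Cre replicate 4 this came with a lower Hsp90ab1 and not with a higher Hsp90aa1.

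Hsph1 encodes HSP110, the nucleotide exchange factor of cytosolic HSP70. Its 2 RefSeq windows overlap by 279 bases, and the second (GRCm38.p6, chr5:149636266-149636565, minus strand) is shown as that of a member high in 3 of 4 Alb-Cre libraries. Core matches, in capitals, start 54 bases before and 15 and 20 bases after the start site, the last 2 overlapping.
Hsph1: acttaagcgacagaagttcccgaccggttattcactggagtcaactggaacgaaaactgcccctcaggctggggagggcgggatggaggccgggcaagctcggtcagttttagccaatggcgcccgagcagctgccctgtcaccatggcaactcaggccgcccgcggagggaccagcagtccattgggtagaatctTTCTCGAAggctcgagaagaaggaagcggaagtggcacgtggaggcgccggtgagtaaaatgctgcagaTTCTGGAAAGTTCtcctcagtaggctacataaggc

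Hsph1 was at 15.95, 15.82, 15.06 and 6.27 FPKM in Alb-Cre and at 8.27, 7.914, 8.197 and 7.05 FPKM in Alb-WT libraries. Replicates 1 to 3 stood close together above every Alb-WT library, and replicate 4 stood below them all. The difference did not pass with all libraries (limma log2 fold change 0.61, SE 0.25, adjusted p = 0.0899) and did without replicate 4 (0.91, SE 0.062, adjusted p = 7.97e-07).

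Of 7 further cytosolic HSP70 and HSP110 genes, 3 were tested, with 1 higher, 1 lower and a median of 0.08. Hspa4l, another HSP110, followed Hsph1, at 4.17, 4.26, 4.08 and 1.93 FPKM in Alb-Cre and 2.05, 1.98, 2.04 and 1.80 FPKM in Alb-WT libraries (limma log2 fold change 0.60, SE 0.18, adjusted p = 0.0343). Leaving out any of the other 7 libraries ended that call. Hspa2 was lower (-0.35, limma adjusted p = 0.0448), a call kept under only 3 of 16 alternatives.

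Dnajb1 encodes the main inducible J-domain partner of cytosolic HSP70. It was at 6.063, 4.838, 5.892 and 5.085 FPKM in Alb-Cre and at 5.575, 6.068, 6.377 and 7.135 FPKM in Alb-WT libraries. The groups overlapped and replicate 4 lay within the range of the other Alb-Cre libraries. The difference did not pass with all libraries (limma log2 fold change -0.17, SE 0.093, adjusted p = 0.174) or without replicate 4 (-0.14, SE 0.089, adjusted p = 0.181), which puts its value near that of the median gene.

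Of 15 other cytosolic J-domain proteins, 1 was higher, Dnajb2 (0.35, limma adjusted p = 0.0206, lost under 5 of 17 alternatives), and 2 were lower, Dnajb4 (-0.42, lost under 1 of 16) and Dnajc13 (-0.33), with a median of -0.09. Without Alb-Cre replicate 4, 2 were higher and 8 lower, where 15.2% of all rows were higher and 46.1% lower. Dnaja1, an inducible member of that list, was at 31.5, 30.1, 30.2 and 21.8 FPKM in Alb-Cre and 24.8, 20.6, 23.6 and 21.1 FPKM in Alb-WT libraries and did not pass with all libraries (0.31, limma adjusted p = 0.0742) but did without replicate 4 (0.43, adjusted p = 0.000312). Of 8 tested cofactors of HSP70, such as the BAG proteins, 0 passed in either direction with limma or with voom, 1 was higher and 2 were lower at an unadjusted p under 0.05, and the median was -0.07. Without Alb-Cre replicate 4, 2 were higher and 2 lower, of 9 then tested. Bag3, an inducible exchange factor, had 11.4 and 10.6 FPKM as the Alb-Cre and Alb-WT means (limma adjusted p = 0.354).

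Hspb1 encodes HSP25, a small heat shock protein that holds unfolded proteins without using ATP. Its window (RefSeq, GRCm38.p6, chr5:135887669-135887968, plus strand) is shown as that of another member high in 3 of 4 Alb-Cre libraries. Core matches, in capitals, start 117 and 97 bases before the start site.
Hspb1: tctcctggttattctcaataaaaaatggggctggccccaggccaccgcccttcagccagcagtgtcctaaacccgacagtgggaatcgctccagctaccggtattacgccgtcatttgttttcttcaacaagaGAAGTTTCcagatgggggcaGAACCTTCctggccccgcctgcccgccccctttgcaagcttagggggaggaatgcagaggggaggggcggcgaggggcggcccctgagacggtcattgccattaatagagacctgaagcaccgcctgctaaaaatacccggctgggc

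Hspb1 was at 30.35, 38.85, 36.03 and 15.23 FPKM in Alb-Cre and at 17.06, 18.41, 17.84 and 21.1 FPKM in Alb-WT libraries. Replicates 1 to 3 were above and replicate 4 was below every Alb-WT library. The difference did not pass with all libraries (limma log2 fold change 0.59, SE 0.25, adjusted p = 0.0986) and did without replicate 4 (0.88, SE 0.09, adjusted p = 1.58e-05). Its transcript shares 44.0% of its 100-base stretches with the pseudogene Hsp25-ps1, and Hspa8, Hsp90aa1, Hspd1 and Hspe1 share 28.2%, 38.0%, 23.4% and 10.0% with other genes, so that their levels depend on how shared reads were counted. Of 4 further small heat shock proteins tested, 1 was higher, Hspb8 (0.32, limma adjusted p = 0.00684), and 0 were lower, also with voom and at an unadjusted p under 0.05. Hspb8 was at 151, 150, 147 and 139 FPKM in Alb-Cre and 116, 114, 116 and 122 FPKM in Alb-WT libraries.

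Over the members with a RefSeq window, 7 of 10, the core motif was in at least 1 window of 6 (Hspa1a, Hspa1b, Hsph1, Hspb1, Hspd1 and Hspe1) and not in those of Dnajb1. In the whole promoter table it was in 15.1% of 32851 windows. That share counts single windows, whereas some members had more than 1. Nor are the members separate, as the Hspe1 window shares 285 bases with the second Hspd1 window. The windows of Hspa1a and Hspa1b differ at 4 positions. A run of 3 alternating GAA and TTC units spaced 2 bases apart was in windows of Hsph1, Hspd1 and Hspe1 and in 0.6% of all windows. These matches describe letters only. Members with a core match were found among those higher, lower and not passing.

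Alb-Cre replicate 4 was not shifted by a common amount for all members. The median log2 departure of the 9 tested members from the Alb-WT mean was 0.61, 0.51 and 0.62 in the first 3 Alb-Cre replicates and -0.27 in the fourth, and the summed level of all 10 was 1120 to 1200 FPKM in replicates 1 to 3, 684 FPKM in replicate 4 and 797 to 807 FPKM in Alb-WT. Among the 9 tested members replicate 4 was above all Alb-WT libraries for 2 (Hspd1 and Hspe1), below all for 6 and within their range for 1 (Hsp90aa1). Over all rows tested it was above, below and within for 34.4%, 33.5% and 32.1%, and among the 1680 rows called higher without it for 62.9%, 20.3% and 16.8%. That last set holds neither Hspa1b nor Dnajb1, both among the 6 members below all Alb-WT libraries.

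**Figure D3:**
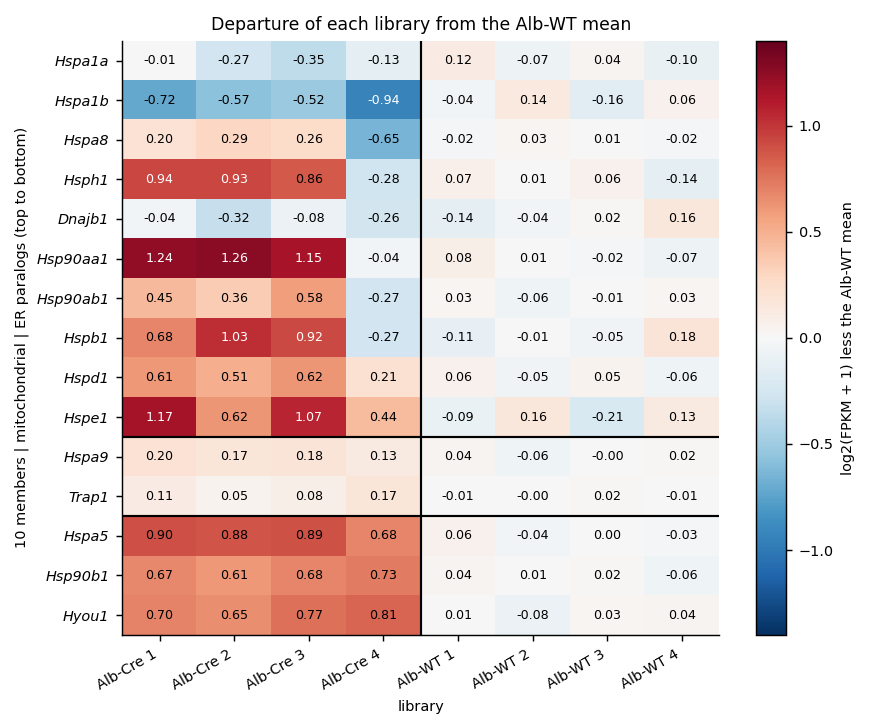
Difference of log2(FPKM + 1) from the Alb-WT mean (colour and printed value) for the 10 members, 2 further mitochondrial chaperones and 3 ER chaperones (rows) in each library (columns, Alb-Cre left of the line). In the column of Alb-Cre 4 most cytosolic members are blue, Hspd1 and Hspe1 remain red at 0.21 and 0.44, and the ER chaperones remain red as in Alb-Cre 1 to 3.

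The ER chaperones gave the comparison within the same libraries. Of 17 listed, all tested, 14 were higher and 0 lower in Alb-Cre, with a median log2 fold change of 0.69 (limma; 17 higher and 0 lower at an unadjusted p under 0.05, and 15 and 0 with voom). Creld2, an ER disulfide isomerase, had the smallest p, at 110, 104, 115 and 107 FPKM in Alb-Cre and 36.4, 33.9, 36.1 and 39.5 FPKM in Alb-WT libraries (1.56, limma adjusted p = 9.42e-06). The median departure of the list was 0.67, 0.64, 0.68 and 0.77 in Alb-Cre replicates 1 to 4, and all 17 genes were above every Alb-WT library in replicate 4. This list had moved in earlier results of these data and is given as a reference point only.

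Ratios within a library, in which its scaling cancels, set the cytosolic and mitochondrial chaperones against their ER paralogs. These paralogs belong to the ER list that had already moved, so a ratio to them falls for any gene that rose less. The p-values of these ratios therefore describe how the libraries separate and are no independent support. Hspa5, the ER HSP70, was at 415, 407, 410 and 355 FPKM in Alb-Cre and 230, 216, 222 and 217 FPKM in Alb-WT libraries. The log2 ratio of Hspa8 to Hspa5 was -0.45, -0.34, -0.38 and -1.08 in Alb-Cre and 0.17, 0.32, 0.26 and 0.26 in Alb-WT libraries. Per length, the ER form was the more abundant in every Alb-Cre library and the cytosolic form in every Alb-WT library (difference -0.82, exact two-sided permutation p = 0.0286, adjusted p = 0.0381 over 8 ratios, as for the 3 ratios that follow). For the matrix form the log2 ratio of Hspa9 to Hspa5 was -1.94, -1.95, -1.94 and -1.79 in Alb-Cre and -1.26, -1.26, -1.24 and -1.19 in Alb-WT libraries, a difference of -0.67.

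Hsp90b1, the ER HSP90, was at 219, 209, 219 and 227 FPKM in Alb-Cre and 140, 137, 138 and 131 FPKM in Alb-WT libraries. The log2 ratio of Hsp90ab1 to Hsp90b1 was 0.83, 0.81, 0.96 and 0.05 in Alb-Cre and 1.06, 1.00, 1.04 and 1.15 in Alb-WT libraries, a difference of -0.40 that was -0.19 without Alb-Cre replicate 4. The log2 ratio of Trap1 to Hsp90b1 was -2.06, -2.05, -2.09 and -2.06 in Alb-Cre and -1.54, -1.50, -1.49 and -1.44 in Alb-WT libraries, a difference of -0.57. For both HSP90 ratios every Alb-Cre library was below every Alb-WT library. Without any 1 of the Alb-WT libraries the exact permutation p of the Hsp90ab1 ratio was 0.0571 to 0.0857.

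The HSP110 ratio was the exception. The log2 ratio of Hsph1 to Hyou1, the ER member of that family, was -1.57, -1.53, -1.72 and -3.03 in Alb-Cre and -1.81, -1.78, -1.84 and -2.07 in Alb-WT libraries. Replicates 1 to 3 were above and replicate 4 was far below the Alb-WT range, so the difference of -0.09 over all libraries (exact two-sided permutation p = 1.0) became 0.27 without replicate 4. With 3 libraries against 4 the exact test cannot go below p = 0.0286, the value it gave there.

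**Figure D4:**
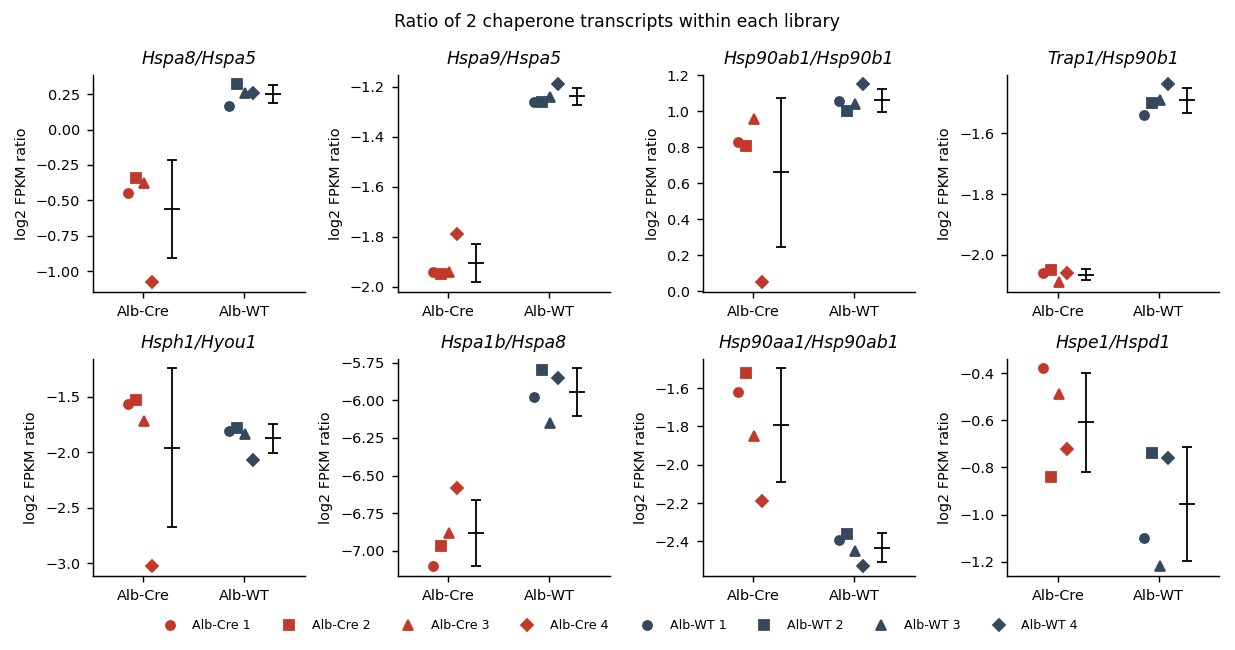
Log2 ratio of the FPKM of 2 chaperone transcripts of the same library (vertical axes, which do not start at 0) in the 4 Alb-Cre and 4 Alb-WT libraries, with bars for the mean and SD of each group. The groups are apart in 6 of the 8 panels, while Hsph1/Hyou1 and Hspe1/Hspd1 overlap or straddle.

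The list of heat shock factors and their binding proteins held 5 tested genes. Of these, the factors Hsf2 (-0.44) and Hsf4 (-0.47) were lower, Hsbp1l1 (0.84, limma adjusted p = 0.00616) and Hsbp1 (0.28), of the binding protein family, were higher, and the median was -0.21. Hsf1, the main stress-responsive factor, was at 2.01, 1.39, 1.69 and 1.93 FPKM in Alb-Cre and 2.36, 2.02, 2.27 and 2.09 FPKM in Alb-WT libraries, with no overlap, and did not pass with all libraries (-0.21, limma adjusted p = 0.0887) but did without Alb-Cre replicate 4 (-0.25, adjusted p = 0.0295). Of 16 other known targets of heat shock factor, partly in the lists above, 4 were higher (Hspb8, Stip1, Ahsa1 and Hspa4l) and Rgs2 (-1.13) was among those lower, with a median of 0.17 over the list. Rgs2 was at 1.08, 1.32, 1.002 and 3.38 FPKM in Alb-Cre and 4.801, 4.035, 4.797 and 4.777 FPKM in Alb-WT libraries. Without Alb-Cre replicate 4, 8 of these targets were higher and 4 lower.

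Of 14 subunits of the cytosolic chaperonin TRiC and its partner prefoldin, 4 were higher and 0 lower (limma; also 4 and 0 with voom, and 6 and 0 at an unadjusted p under 0.05), with a median of 0.12, and 7 and 0 without Alb-Cre replicate 4. The 4 were Cct3 (0.29), Cct5 (0.24), Cct6a (0.23) and Cct7 (0.36), all subunits of TRiC. Cct7 was at 16.3, 15.9, 15.6 and 14.3 FPKM in Alb-Cre and 11.8, 11.2, 11.4 and 13.1 FPKM in Alb-WT libraries (limma adjusted p = 0.00792).

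**Figure D5:**
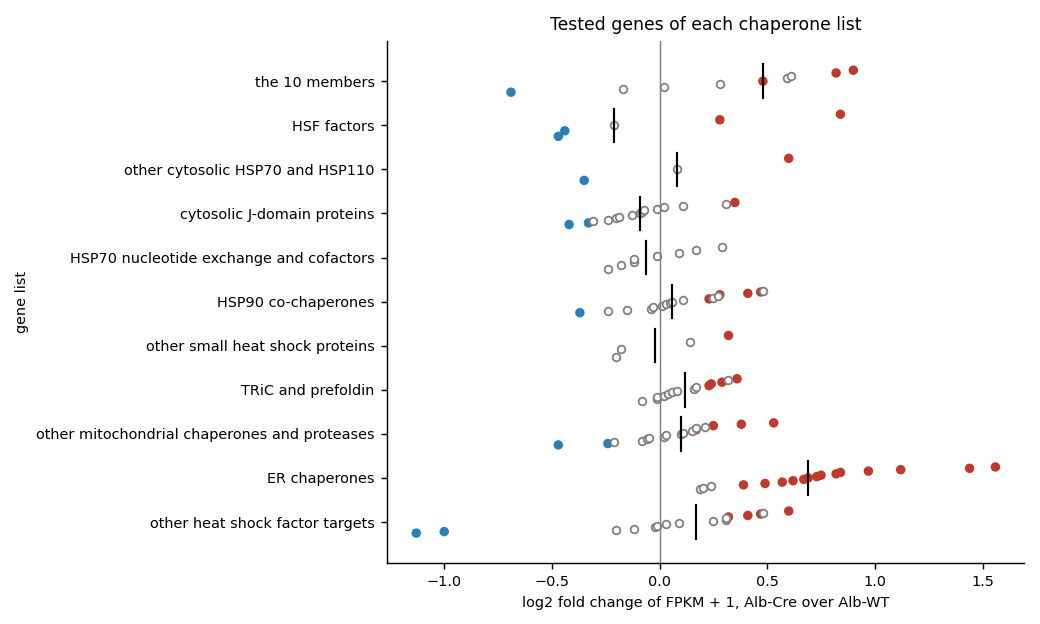
Log2 fold change of FPKM + 1, Alb-Cre over Alb-WT (horizontal axis), of each tested gene in 11 lists (rows). Filled red and blue points passed the limma test as higher and lower, open points did not, and black bars give the median of each list, 0.48 for the members and 0.69 for the ER chaperones.

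Values of gene groups outside the chaperones are given beside them. Immediate early genes, which answer to handling and to signalling within minutes to hours, had 0 of 13 higher and 6 lower (limma; 0 and 7 with voom, 0 and 9 at an unadjusted p under 0.05), of which Zfp36 had the smallest p (-0.74, limma adjusted p = 0.000255). Without Alb-Cre replicate 4, 1 was higher and 11 were lower. Their summed level was 87 to 98.4 FPKM in Alb-Cre replicates 1 to 3, 144 FPKM in replicate 4 and 156 to 166 FPKM in Alb-WT. Of 13 core clock genes 4 were higher and 3 lower, with the smallest p in each direction for Nr1d1 (1.03) and Cry1 (-0.84), and 3 were higher and 5 lower of 12 tested without Alb-Cre replicate 4. For Zfp36, Nr1d1 and Cry1, replicate 4 was the Alb-Cre library farthest from the Alb-WT mean, at -0.85, 1.31 and -1.02 on the log2 scale. Zfp36 was not typical of its list. The immediate early genes had a median departure of 0.04 in replicate 4, against -0.82, -0.89 and -0.87 in Alb-Cre replicates 1 to 3. Of the 13 tested, 5 lay above and 5 below every Alb-WT library in replicate 4. The summed level of 8 monocyte and macrophage markers was 103 to 113 FPKM in Alb-Cre replicates 1 to 3, 468 FPKM in replicate 4 and 465 to 492 FPKM in Alb-WT, and that of the neutrophil markers 7.13 to 7.46, 86.7 and 264 to 326 FPKM. The median log2 departure of the monocyte and macrophage markers in replicate 4 was -0.32, with 5 of 8 below every Alb-WT library and 2 above. The highest of them, Lyz2, made up 388 of the 468 FPKM. Lymphocyte markers lay on the other side in replicate 4. The 6 tested T and NK cell markers had a median departure of 0.45 there, with 5 above every Alb-WT library and 0 below. For the 3 tested B cell and plasma cell markers it was 0.72, with 3 above. Both lists were low, with sums of 15.2 and 15.3 FPKM in replicate 4. In Alb-Cre replicates 1 to 3 the medians were -0.84 to -0.68 and -0.66 to -0.49. The part of these cells, of sampling time and of handling in the chaperone values was not tested.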

How the data were processed

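Gene-level FPKM values, as the authors deposited them, were used for 8 mouse liver libraries, 4 of each genotype, grouped by their titles. Trizol-extracted total RNA went into standard Illumina libraries, per the labels' protocols. The labels also say 10x Genomics, which that protocol does not describe. The submitters' processing notes name HISAT2 2.0.5 and the builds mm39 and hg38 without a role. The sources used here do not name the counting tool, annotation or strand setting. Reads shared with near-identical genes may therefore have been split or dropped.

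The test was limma 3.58.1 (R 4.3.3; empirical Bayes with trend, genotype only) on log2(FPKM + 1) for the 11077 rows whose mean reached 0.5 FPKM, with Benjamini-Hochberg adjustment over all of them. Fold changes are on that scale, which understates changes of low genes. Single values and within-library ratios had an exact two-sided permutation test. Steps between the deposited FPKM values gave whole fragments for 99.97% of rows (within 1e-04), used for depth and for voom. Implied gene lengths matched GENCODE M21 exon lengths within 1 bp for 94.6% of 13453 genes. Python 3.11.15 was used for the rest. The fit was tested on simulated data. The members and all lists were chosen with earlier results of these data known. Named genes were the members, Bicd2, the genes of the ratios and, of each list, the called gene with the smallest p in each direction. Alternatives were pseudocount 0.1, other filters, 3 scalings, voom, a replicate block and leaving out each library. A gene length correction and the sum of Hspa1a and Hspa1b were added after seeing the data. Promoter windows are RefSeq's on GRCm38.p6. The values of 1 listed gene are not reported here.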

Additional observations from a re-analysis of the deposited data

Results flagged for a closer look

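Of 36 groups of 4 values examined, 7 held a library far from the other 3, and in all 7 it was Alb-Cre replicate 4. Chance alone gives about 1 in 20 for independent groups, which these are not, so the 2 rates cannot be compared as a test. Hspa8 was at 168 FPKM there, against 303 to 322 FPKM in the rest of the Alb-Cre group. Hsp90aa1 was at 51.5 FPKM, against 119 to 128 FPKM, and Hsph1 at 6.27 FPKM, against 15.1 to 15.9 FPKM. Among the within-library log2 ratios, Hspa8 to Hspa5 was -1.08, against -0.45 to -0.34, and Hsp90ab1 to Hsp90b1 was 0.05, against 0.81 to 0.96. Hsph1 to Hyou1 was -3.03, against -1.72 to -1.53. Hspa9 to Hspa5 was -1.79, against -1.95 to -1.94, a small step beside the gap of both to the Alb-WT ratios of -1.26 to -1.19. These items share libraries and genes, so they are not 7 separate events.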

How the results depend on the processing

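The calls of Hspa1b (where tested), Hspd1 and Hspe1 held under every alternative run, and Dnajb1 passed under none. Members called higher numbered 3, and 2 to 7 when each library was left out in turn, with 7 without Alb-Cre replicate 4. Members called lower numbered 1, and 1 in each leave-one-out fit, but 0 with a mean of at least 5 FPKM, a filter that removes Hspa1b. All rows called higher (939) became 623 with a common FPKM sum, 1874 with median-of-ratios scaling, 1522 with quantile normalization and 546 to 1680 leaving out each library. Rows called lower (2582) became 981 with a mean of at least 5 FPKM, 1516 with median-of-ratios scaling, 1478 with quantile normalization, 1502 with the gene length correction and 1192 to 5088 leaving out each library. The Hsph1/Hyou1 difference of -0.09 ran from -0.23 to 0.27 leaving out each library, and reversed, to 0.27, without Alb-Cre replicate 4. Same-numbered libraries did not deviate together (correlations -0.0649, -0.054, -0.0968 and 0.0131, with 0 of 8 libraries closest to their own number), so no pairing by number was seen in this measure. The correlations with gene length, however, kept the same order of absolute size by number in both groups, with opposite signs in Alb-Cre and Alb-WT. Whether the numbers link libraries in another way was not tested. A fit with a replicate block called 613 rows higher and 1631 lower and the same 4 members. For ratios, an exact permutation of signs within the 4 number pairs cannot go below p = 0.125. The Hspb8 call was lost under 1 of 17 alternatives. Depth limits Hspa1a, with 2 to 41 fragments per library.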
